A study of Homo sapiens with 12 samples.

Results

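The lysosome of T-47D cells was read here through 43 genes, taken from the 19460 genes of the deposited RNA table by a fixed list of symbols. They were 21 hydrolases and their partners, 8 membrane and sterol transfer proteins, 11 subunits of the vacuolar proton pump (V-ATPase) and the 3 transcription factors TFEB, TFE3 and MITF of the MiT/TFE family. All 43 symbols were found. T-47D is a human breast cancer cell line of luminal type that carries the oestrogen receptor, wild type per the labels, so all groups share this one line. Cells had received 1 µM palbociclib, an inhibitor of the cell cycle kinases CDK4 and CDK6, or the solvent DMSO for 24 h. Poly(A) RNA sequencing and ATAC-seq, in which the transposase Tn5 cuts open chromatin, each gave 3 libraries per treatment. The ATAC labels name separate biological replicates. The RNA labels only number the libraries, so p-values for RNA measure the spread between these libraries, which may be technical. In cultures like these, a change in the mix of cell states and a change in RNA per cell cannot be told apart.

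Lysosomes break down proteins, lipids and glycans with acid hydrolases, which work only because the V-ATPase pumps protons into the lumen. MiT/TFE factors enter the nucleus when the kinase complex mTORC1 is inactive at the lysosome, and bind short DNA elements, called CLEAR elements, near the starts of many lysosomal genes. Palbociclib is a weak base, a kind of compound that collects in acidic compartments, and CDK4/6 have been described as kinases of TFEB and TFE3. The comparison of palbociclib with DMSO asks how RNA, start site accessibility and splicing of these genes stood after 24 h of the drug.

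The cells carried the markers of their label. All 10 luminal epithelial markers were in the table, at a summed level of 6221 to 6779 FPKM (fragments scaled to transcript length and library size) in DMSO and 8383 to 9243 FPKM with palbociclib. By the limma test used below, 9 of them rose and 0 fell, against 20.9% higher and 22.9% lower of all genes tested. EPCAM, which limma did not call, stood at log2 -0.14 (limma adjusted p 0.0544). The authors' deposited table called 1 of the 10 markers lower. The part of the shift in these markers in the results below was not tested. Markers of macrophages and leukocytes, cells rich in lysosomes, summed to 0.250 to 0.410 FPKM in DMSO and 0.291 to 0.479 with palbociclib, with 2 of 4 in the table. Basal markers, with only TP63 of 3 in the table, stayed at or under 0.113 FPKM in every library, and 0 of 3 endothelial markers were in the table. Fibroblast markers, with 3 of 4 in the table, summed to 25.2 to 26.0 FPKM in DMSO and 25.7 to 28.5 with palbociclib. Most of this was COL1A1, at 23.1 to 26.0 FPKM over the 6 libraries. FPKM give no library totals. ATAC counts in peaks summed to 12830062 to 18250496 per library. RNA libraries of one group correlated at 0.995 to 0.997 and ATAC libraries at 0.984 to 0.988.

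The promoters of some of these genes hold the letters of the CLEAR element. RefSeq (GRCh38.p14) gave a promoter of 300 bases for 32 of the 43 genes, from 250 before to 50 after the listed start. The motifs were searched on both strands. The E-box core CACGTG was in 8 of the 32 promoters, or 25.0%, against 7.43% of 27305 promoters. The palindromic core of the CLEAR element, TCACGTGA, which contains CACGTG, was in 5, or 15.6%, against 1.04%. The M-box form TCATGTGA was in 2, or 6.25%, against 1.01%. These matches describe letters, not binding. CLEAR elements are described from lysosomal genes, so the higher shares among these genes are not a test. The 7 promoters with a match within 95 bases before the listed start are shown, since they include genes that rose, fell and did not pass the test. Each runs 5′ to 3′ on the gene's strand, ends at the base before the start, and has in capitals the matches that lie wholly within it.
CTSD, chr11:1763928-1764022, minus strand: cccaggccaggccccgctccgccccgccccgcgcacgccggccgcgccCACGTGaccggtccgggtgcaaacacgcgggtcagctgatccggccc
GAA, chr17:80101486-80101580, plus strand: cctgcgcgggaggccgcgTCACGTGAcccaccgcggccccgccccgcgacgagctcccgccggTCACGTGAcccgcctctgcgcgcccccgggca
CTSA, chr20:45891240-45891334, plus strand: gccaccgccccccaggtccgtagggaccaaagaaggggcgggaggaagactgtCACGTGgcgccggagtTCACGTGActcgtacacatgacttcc
MCOLN1, chr19:7522529-7522623, plus strand: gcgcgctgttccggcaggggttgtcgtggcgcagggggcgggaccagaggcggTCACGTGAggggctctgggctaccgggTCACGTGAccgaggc
LAMP1, chr13:113297144-113297238, plus strand: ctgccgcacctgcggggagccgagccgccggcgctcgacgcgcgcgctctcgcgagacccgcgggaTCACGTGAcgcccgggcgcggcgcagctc
ATP6V0D1, chr16:67481158-67481252, minus strand: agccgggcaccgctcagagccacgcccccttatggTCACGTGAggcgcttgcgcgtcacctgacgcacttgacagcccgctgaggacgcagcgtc
TPP1, chr11:6619423-6619517, minus strand: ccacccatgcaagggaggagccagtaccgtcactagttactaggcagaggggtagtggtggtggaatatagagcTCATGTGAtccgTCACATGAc

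Lysosomal RNA shifted by small steps, more often upward than downward, and 11 of the 18 genes that rose were hydrolases or their partners. On log2(FPKM + 1), which understates the change of low genes, limma called 18 of the 42 genes tested higher and 6 lower, at a Benjamini-Hochberg adjusted p under 0.05 over all genes. Over all 15869 genes tested, 20.9% were higher, 22.9% lower and 43.7% changed in either direction. The median log2 change was 0.10 for the lysosomal genes and 0.00 for all genes. The 43rd gene, MITF, lay under the filter of a mean of 0.5 FPKM. In 28 of the 42 genes the DMSO and palbociclib libraries did not overlap, against 54.7% of all genes tested. The called genes split 75.0% to higher, 85.3% after quantile normalization (29 higher, 5 lower) and 63.2% with the columns scaled to a common FPKM total (12 higher, 7 lower).

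**Figure D1:**
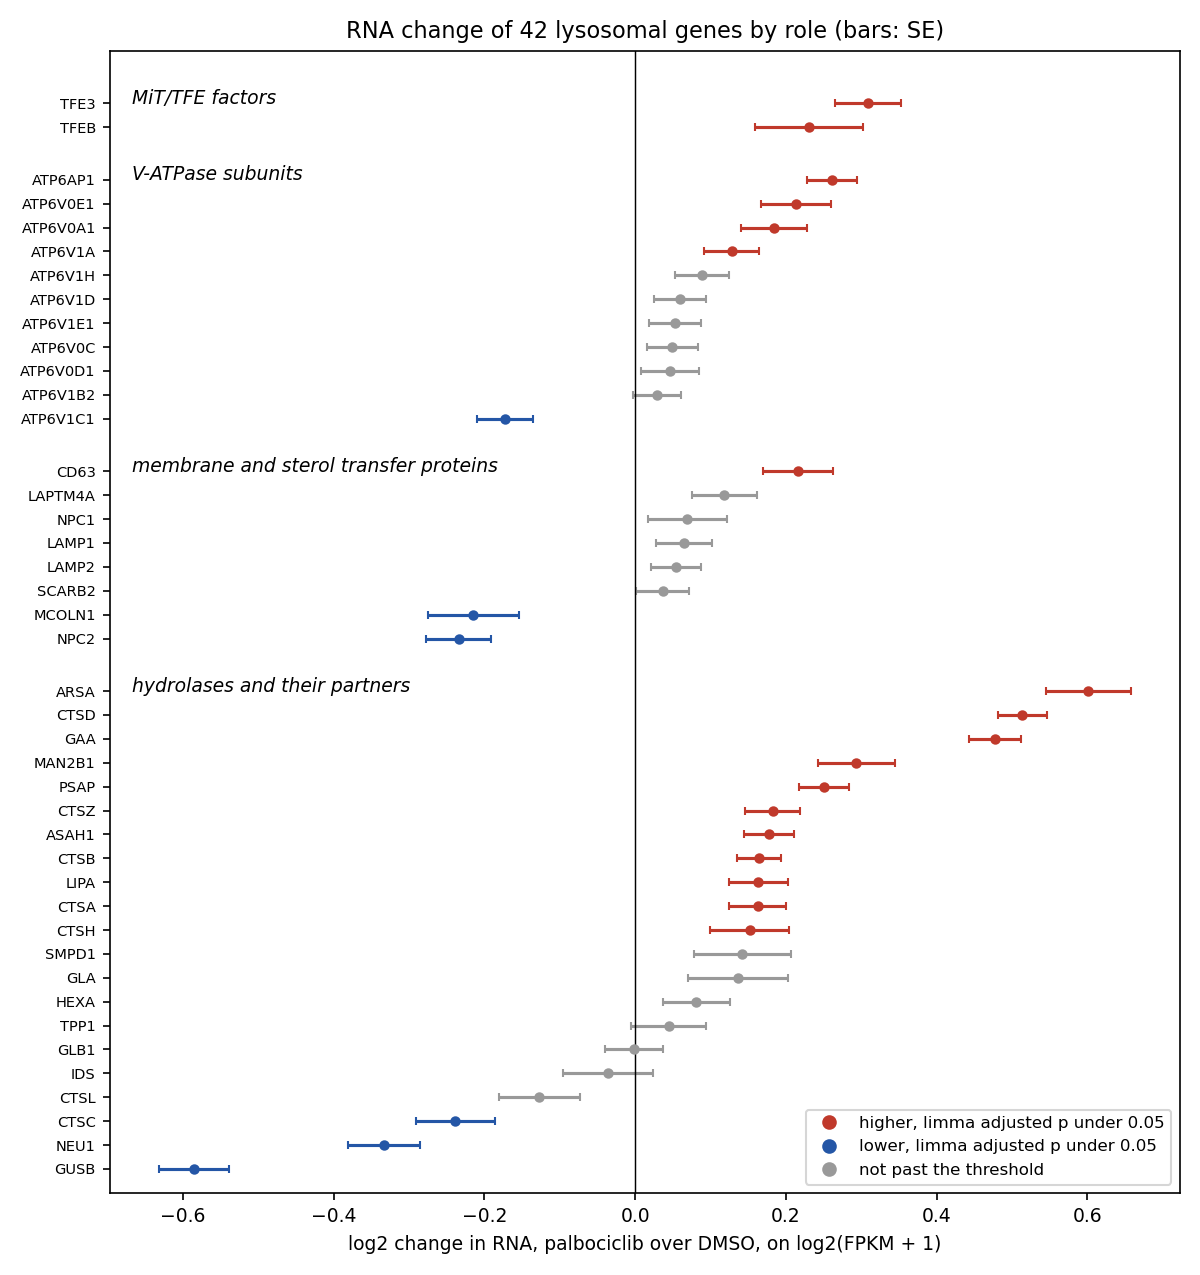
Log2 change in RNA (palbociclib over DMSO, on log2(FPKM + 1)) of the 42 tested genes, grouped by role, with bars of 1 SE, 3 libraries per group. Red points were higher and blue points lower by limma. ARSA, CTSD and GAA stand highest and GUSB lowest, and the V-ATPase subunits lie between -0.17 and 0.26.

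Among the hydrolases and their partners, 11 of 21 rose and 3 fell, against 20.9% higher and 22.9% lower of all genes tested. The other 7 did not pass the test, and the median log2 change of the 21 was 0.15. Their summed level was 2138 ± 6.37 FPKM in DMSO and 2647 ± 81.8 FPKM with palbociclib (SD, n = 3), a ratio of 1.24. Much of this sum is CTSD, cathepsin D, the main aspartic protease of lysosomes and a known oestrogen receptor target in breast cancer cells. CTSD (chr11:1752755-1763927) was the most abundant of the 43 genes, at 961, 959 and 941 FPKM in DMSO and 1398, 1369 and 1319 FPKM with palbociclib. All 3 treated libraries lay above all controls, a log2 change of 0.51 ± 0.03 (SE; limma adjusted p 5.29e-06). Genes given by library, apart from the MiT/TFE factors, were chosen among those whose groups did not overlap. Their separation, here and below, is therefore no added support. Over all 43 genes the summed level had a ratio of 1.15. Without CTSD, the sum went from 3427 ± 71.7 to 3675 ± 124 FPKM (SD, n = 3), a ratio of 1.07. All these sums use the FPKM as deposited, whose columns do not share a total, and depend on that scaling. With a common FPKM total, the median log2 change of the lysosomal genes was 0.03, against 0.10 as deposited.

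GAA, the acid alpha-glucosidase that digests glycogen, held 53.6, 56.3 and 56.2 FPKM in DMSO and 78.0, 79.0 and 75.5 FPKM with palbociclib. The groups were far apart, and the log2 change was 0.48 ± 0.03 (SE; limma adjusted p 1.15e-05). ARSA, arylsulfatase A, which removes sulfate from sulfatides, was low in DMSO at 6.85, 7.87 and 7.38 FPKM and rose to 11.8, 11.8 and 11.5 FPKM. Its log2 change of 0.60 ± 0.06 (SE; limma adjusted p 6.14e-05) was the highest of the 42 genes. PSAP, prosaposin, the precursor of the saposins that help hydrolases reach sphingolipids, held 255, 254 and 259 FPKM in DMSO and 317, 302 and 296 FPKM with palbociclib. That is a smaller step, log2 0.25 ± 0.03 (SE; limma adjusted p 0.000436), with groups that did not overlap.

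The other 7 hydrolases that rose did so by log2 0.15 to 0.29. MAN2B1, lysosomal alpha-mannosidase, was at the upper end of these, and CTSH, a cysteine cathepsin, at the lower end with a limma adjusted p of 0.0454. Between them lay CTSZ and CTSB (cysteine cathepsins), ASAH1 (acid ceramidase), LIPA (acid lipase) and CTSA (a serine carboxypeptidase). The CTSH call was lost in 8 of 13 alternatives, among them those that left out DMSO replicate 1 or 2, or palbociclib replicate 1 or 3. With a common FPKM total the calls of LIPA and CTSA were lost as well.

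GUSB, beta-glucuronidase, which trims glycosaminoglycans, showed the steepest fall of the 42 genes. It held 61.2, 60.1 and 66.3 FPKM in DMSO and 42.5, 39.6 and 41.8 FPKM with palbociclib, so every treated library was below every control. The log2 change was -0.59 ± 0.05 (SE; limma adjusted p 2.1e-05). NEU1, the lysosomal sialidase, fell from 102, 99.6 and 103 FPKM to 85.6, 80.5 and 74.9 FPKM, log2 -0.33 ± 0.05 (SE; limma adjusted p 0.000656). NEU1, CTSA and GLB1 (beta-galactosidase) work as one enzyme complex in the lysosome, in which CTSA protects the other two. Of this complex NEU1 fell, CTSA rose by log2 0.16, and GLB1 stood at log2 -0.00, with a 95% interval of -0.09 to 0.09. CTSC, cathepsin C, which activates serine proteases, went from 22.3, 20.5 and 23.4 FPKM to 18.6, 18.9 and 18.1 FPKM, log2 -0.24 ± 0.05 (SE; limma adjusted p 0.00655).

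The hydrolases that did not pass the test were SMPD1 (acid sphingomyelinase), GLA (alpha-galactosidase A), HEXA (the alpha subunit of beta-hexosaminidase), TPP1 (a tripeptidyl peptidase), GLB1, IDS (iduronate sulfatase) and CTSL (cathepsin L). Their log2 changes ran from -0.13 for CTSL to 0.14 for SMPD1. A miss of the threshold does not show that these genes kept their level. For IDS, for example, the 95% interval was -0.17 to 0.10.

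**Figure D2:**
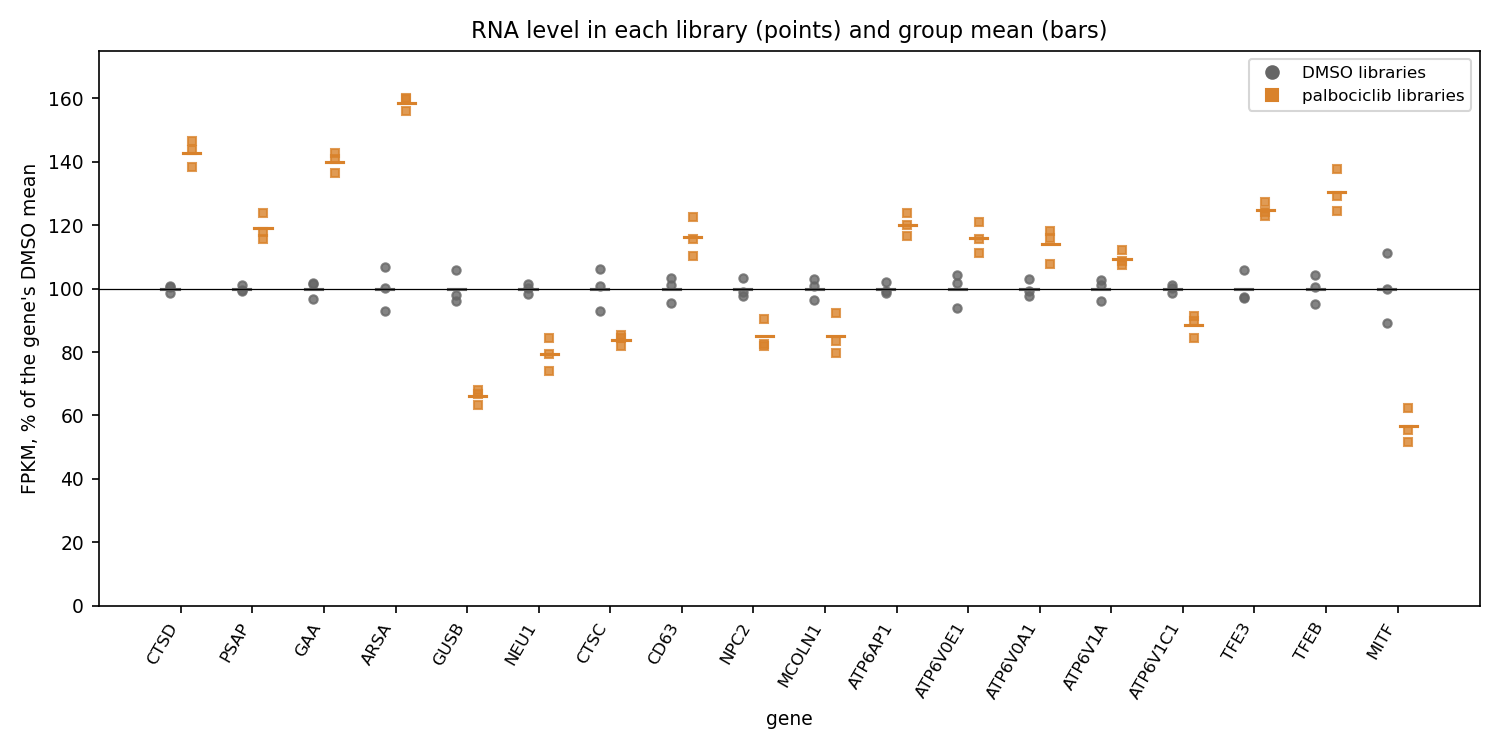
RNA level of the 18 genes described by library, as percent of the gene's own DMSO mean, with grey points for 3 DMSO libraries, orange squares for 3 palbociclib libraries and short bars for means. The groups are apart because the genes were chosen so, apart from the 3 MiT/TFE factors, and 54.7% of all genes tested are apart too. ARSA is highest and MITF lowest relative to its DMSO mean.

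Among the membrane and sterol transfer proteins, of 8 genes, 1 rose, 2 fell and 5 did not pass the test. Over all genes tested, 20.9% were higher and 22.9% lower. The median log2 change of the 8, 0.06, turned to -0.02 with a common FPKM total. CD63, a tetraspanin of late endosomes and lysosomes, was the one that rose, from 540, 509 and 551 FPKM to 655, 617 and 589 FPKM. All treated libraries lay above the controls, log2 0.22 ± 0.05 (SE; limma adjusted p 0.00581). The 2 that fell were NPC2 and MCOLN1. NPC2, a soluble protein that hands cholesterol to NPC1 for export, went from 265, 262 and 277 FPKM to 242, 221 and 220 FPKM, log2 -0.23 ± 0.04 (SE; limma adjusted p 0.00278). Its partner in the membrane, NPC1, stood at log2 0.07 ± 0.05 (SE; limma adjusted p 0.318).

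MCOLN1, the calcium channel TRPML1 through which calcium leaves the lysosome, went from 12.3, 12.01 and 11.5 FPKM to 11.0, 9.94 and 9.49 FPKM. The step was log2 -0.22 ± 0.06 (SE; limma adjusted p 0.0204), and the call was lost without DMSO replicate 1 or 2, without palbociclib replicate 2 or 3, and after quantile normalization. LAMP1 and LAMP2, the heavily glycosylated proteins that make up much of the lysosomal membrane, stood at log2 0.06 and 0.05 (limma adjusted p 0.2 and 0.217). SCARB2, the carrier of beta-glucocerebrosidase, stood at 0.04. LAPTM4A, a small transmembrane protein, had a limma adjusted p of 0.0564 and was called higher in the authors' deposited table, with an adjusted p of 0.0444.

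Of 11 V-ATPase subunits, 4 rose, 1 fell and 6 did not pass the test, a share called near the 43.7% of all genes tested, with a median log2 change of 0.06 that turned to -0.02 with a common FPKM total. The pump has a membrane sector, V0, that carries the protons and a cytosolic sector, V1, that splits ATP. Of the 5 genes for V0 and its accessory subunit, 3 rose and 0 fell, and of the 6 for V1, 1 rose and 1 fell. Over all genes tested, 20.9% were higher and 22.9% lower. With so few genes per sector, a difference between V0 and V1 was not tested. ATP6AP1, the accessory subunit that helps assemble the pump, went from 99.9, 99.1 and 103 FPKM to 124, 121 and 117 FPKM, log2 0.26 ± 0.03 (SE; limma adjusted p 0.000333). It was the subunit that rose most.

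ATP6V0E1, a small V0 subunit, held 182, 168 and 186 FPKM in DMSO and 216, 206 and 198 FPKM with palbociclib, log2 0.21 ± 0.05 (SE; limma adjusted p 0.00649). ATP6V0A1, an isoform of the large V0 subunit a, went from 33.8, 35.7 and 34.4 FPKM to 41.0, 37.4 and 40.2 FPKM, log2 0.18 ± 0.04 (SE; limma adjusted p 0.00949). In both genes the groups were apart, by a narrow margin for ATP6V0A1. ATP6V1A, the subunit that binds and splits ATP, went from 48.9, 46.6 and 49.7 FPKM to 52.5, 52.1 and 54.3 FPKM, log2 0.13 ± 0.04 (SE; limma adjusted p 0.0222). This call was lost on leaving out DMSO replicate 2 or palbociclib replicate 3 and with no intensity trend, and the calls of ATP6V0A1 and ATP6V1A were lost with a common FPKM total. ATP6V1C1, a subunit that helps join V1 to V0, was the one that fell, from 56.3, 55.4 and 56.8 FPKM to 51.3, 47.5 and 50.4 FPKM, log2 -0.17 ± 0.04 (SE; limma adjusted p 0.0061). The other 6 subunits, ATP6V0C, ATP6V0D1, ATP6V1B2, ATP6V1D, ATP6V1E1 and ATP6V1H, stood at log2 0.03 to 0.09.

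The 3 MiT/TFE factors differed in level and in direction. TFE3 was the abundant one, at 22.5, 24.5 and 22.6 FPKM in DMSO and 28.8, 29.5 and 28.5 FPKM with palbociclib. All treated libraries were above the controls, log2 0.31 ± 0.04 (SE; limma adjusted p 0.00066). TFEB was low, at 1.38, 1.26 and 1.33 FPKM in DMSO and 1.71, 1.83 and 1.65 FPKM with palbociclib. The groups were apart, at log2 0.23 ± 0.07 (SE; limma adjusted p 0.0307).

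The TFEB call was lost without DMSO replicate 1, 2 or 3, without palbociclib replicate 1 or 2, with the replicate numbers as a block, and with a common FPKM total. In the authors' deposited table, TFEB had a log2 change of 0.38 and an adjusted p of 0.0573. MITF was near the floor of the table, at 0.655, 0.525 and 0.589 FPKM in DMSO and 0.369, 0.305 and 0.327 FPKM with palbociclib. Its treated libraries all lay below the controls. The authors' deposited table gives it a log2 change of -0.82 with an adjusted p of 0.000656, from a mean normalized count of 125. With no filter on low values, limma gave -0.25 ± 0.05 (SE; adjusted p 0.0085) on log2(FPKM + 1). RNA level is not nuclear entry, by which these factors are mainly controlled, and the latter was not measured.

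The authors' deposited table called 18 of the 43 genes higher and 7 lower at its adjusted p of 0.05, against 17.9% higher and 20.3% lower of the 19080 genes with an adjusted p in the authors' deposited table. Calls were the same in direction for 23 genes, LAPTM4A and MITF were called in the authors' deposited table alone, and TFEB by limma alone. In that table the mean normalized count of the members ran from 125 for MITF to 105314 for CTSD.

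Against the motifs shown above, the RNA calls fell in each direction. Of the 5 genes with TCACGTGA, GAA and CTSA rose, MCOLN1 fell, and LAMP1 and ATP6V0D1 did not pass the test. GAA and MCOLN1, which moved in opposite directions, each hold the motif at 2 places before the start. Of the 8 genes with CACGTG, 4 rose, 2 fell and 2 did not pass the test. Over all genes tested, 20.9% were higher and 22.9% lower. The 11 genes without a promoter entry were not searched, so these counts cover only the other 32. CTSD carries it from position -47, counted from the listed start at 0, outside a full TCACGTGA, and NEU1, which fell, carries it from position -126. LAMP1, which did not pass the test, carries it from positions -192, -176, -159, -142, -28 and -1. There TCACGTGA begins at -29 and at -2, the latter running past the start.

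Lysosomal genes outside the 43 moved in both directions. Of 35 other lysosomal hydrolases and cofactors tested, 19 rose and 7 fell, against 20.9% higher and 22.9% lower of all genes tested. Their median log2 change was 0.19. IDUA (alpha-L-iduronidase) went from 8.28 ± 0.68 to 13.9 ± 1.37 FPKM, PLA2G15 (lysosomal phospholipase A2) from 15.0 ± 0.95 to 21.0 ± 0.71, and HYAL1 (hyaluronidase) from 1.78 ± 0.07 to 2.81 ± 0.34 (SD, n = 3). The falls of CTSV and GGH were larger than any among the 42 tested genes. CTSV, cathepsin V, went from 21.6 ± 0.09 to 6.66 ± 0.15 FPKM, log2 -1.56 (limma adjusted p 1.81e-08), with SD over 3 libraries. GGH, gamma-glutamyl hydrolase, which trims folate polyglutamates, dropped to 39.4 ± 0.63 FPKM with palbociclib against 108 ± 3.06 in DMSO, log2 -1.43 (SD, n = 3; limma adjusted p 6.91e-09). ARSB, arylsulfatase B, went from 3.51 ± 0.09 to 2.03 ± 0.16 FPKM.

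Of 24 other lysosomal membrane proteins tested, 9 rose and 4 fell, against 20.9% higher and 22.9% lower of all genes tested. Their median log2 change was 0.06. LMBRD1, a cobalamin exporter, rose by log2 0.41, SIDT2, a nucleic acid transporter, by 0.41 and SLC17A5, the sialic acid exporter, by 0.37. LAMP3, SLC36A1 (an amino acid transporter) and SLC38A9 (the arginine sensor of mTORC1) fell by 0.51, 0.42 and 0.22 on the log2 scale. Of 11 other V-ATPase subunits tested, 5 rose and 1 fell, against the same shares of all genes tested, with a median of 0.11. The rises were led by ATP6V1B1 and ATP6V1C2, isoforms that stood at 1.90 ± 0.19 and 2.27 ± 0.28 FPKM in DMSO and at 3.52 ± 0.38 and 3.27 ± 0.42 FPKM with palbociclib (SD, n = 3). ATP6AP2 followed at log2 0.15, and the one that fell was ATP6V0A2, at log2 -0.26.

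Genes that control MiT/TFE factors at the lysosome moved in both directions. Of 17 mTORC1 and Rag regulators tested, 4 rose and 6 fell, against 20.9% higher and 22.9% lower of all genes tested. Their median log2 change was 0.00. FNIP2 and FNIP1, partners of folliculin, fell from 4.71 ± 0.43 to 2.58 ± 0.25 FPKM and from 12.5 ± 0.37 to 10.2 ± 0.23 FPKM (SD, n = 3). RRAGD, the Rag GTPase D, fell by 0.32 on the log2 scale. PPP3CA, a catalytic subunit of calcineurin, which dephosphorylates TFEB, rose by log2 0.27, RRAGB by 0.22 and RRAGA by 0.21. The other calcineurin genes of the list did not rise. PPP3R1 stood at log2 -0.19 (limma adjusted p 0.00378) and PPP3CB at -0.03 (limma adjusted p 0.583), both named outside the rule.

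Of 7 genes listed under mannose 6-phosphate sorting, the route that delivers new hydrolases, 1 rose and 2 fell, with a median of -0.00. This share called was near the 43.7% of all genes tested. The one that rose was SUMF1, at log2 0.16, which activates sulfatases and does not sort hydrolases. SORT1 and M6PR, both sorting receptors, fell by 0.18 and 0.16 on the log2 scale. M6PR had overlapping groups and is named outside the rule, after its values were seen. Of 29 autophagy genes tested, 10 rose and 3 fell, against 20.9% higher and 22.9% lower of all genes tested. Their median was 0.07, and the share called in either direction was near the 43.7% of all genes tested. GABARAPL1 and WIPI1, which act in autophagosome formation, rose by log2 0.56 and 0.51, and NBR1, a cargo receptor, by 0.26. UVRAG, VPS41 and VPS11, which act in vesicle fusion, fell by 0.25, 0.16 and 0.14 on the log2 scale.

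**Figure D3:**
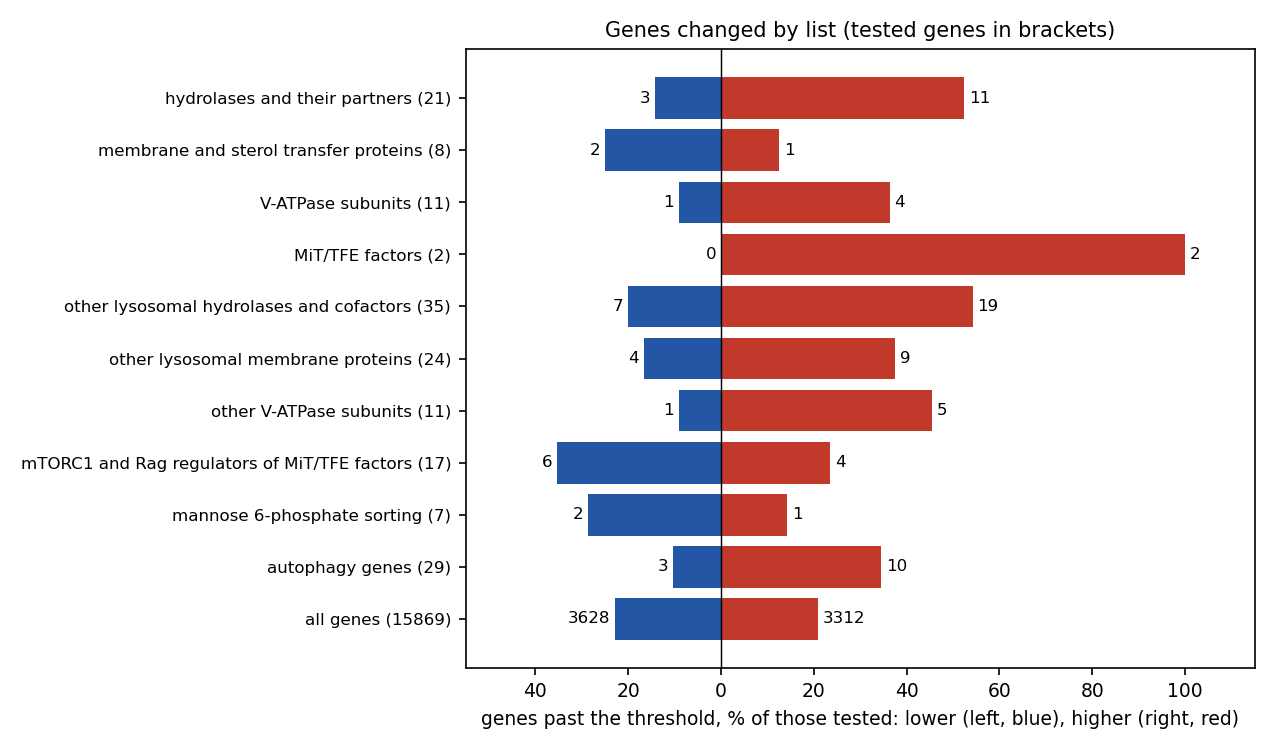
Share of tested genes called higher (red, right) or lower (blue, left) by limma in each list, with counts at the bar ends and tested genes in brackets. The hydrolase lists have 11 of 21 and 19 of 35 genes higher, against 3312 of 15869 of all genes; the MiT/TFE bar rests on 2 genes.

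Chromatin at the starts of these genes showed little change. Of the 43 genes, 21 had an ATAC peak within 1 kb of the start listed for GRCh38, 1 peak each. Of these 21 peaks, 0 were more open and 1 less open at a Benjamini-Hochberg adjusted p under 0.05 in edgeR's quasi-likelihood test, and 3 had an unadjusted p under 0.05. Each gene had 1 listed start, and a peak that was more open inside LIPA, 162910 bases after its listed start, was not counted. Whether it marks another start of LIPA, or its usual one, was not tested. The LIPA promoter searched for motifs was also that of the listed start. Over all 38121 peaks, 5.41% were more open and 6.46% less open. Over the 6644 peaks within 1 kb of any listed start, the shares were 1.44% and 11.4%. The median log2 change was -0.02 for the 21 peaks and -0.05 for those 6644. Changes ran from -0.21 to 0.07, and the mean count per library of a start peak was 354.7 to 3363.

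The peak that was called lay at GUSB (chr7:65981771-65982705), the hydrolase with the steepest fall in RNA among the 21 of the list, with its centre at position -25 from the listed start. It held 62.5, 59.5 and 59.1 CPM (counts scaled to library size) in DMSO and 55.6, 52.1 and 48.4 with palbociclib. The groups did not overlap, log2 -0.21 (edgeR adjusted p 0.0219). The call was lost without DMSO replicate 1 (edgeR adjusted p 0.0959) and without palbociclib replicate 3 (edgeR adjusted p 0.11). It was also lost with a loess offset (edgeR adjusted p 0.0591) and with DESeq2 (adjusted p 0.0584). At CTSZ, whose RNA rose, the start peak went from 39.8 ± 1.26 to 34.9 ± 1.43 CPM (SD, n = 3; edgeR adjusted p 0.0906).

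For the genes with the steepest rises that had a start peak, the peak showed no such step. At ARSA it held 46.3 ± 2.06 CPM in DMSO and 45.0 ± 3.10 with palbociclib, and at TFE3 225 ± 7.32 and 223 ± 4.33 (SD, n = 3). At PSAP it held 67.4 ± 4.81 and 67.7 ± 3.91, and at ATP6AP1 58.3 ± 2.77 and 58.3 ± 2.94 (SD, n = 3). The edgeR adjusted p at these 4 starts was 0.807 to 0.989. CTSD, GAA and NEU1 had no peak within 1 kb of their listed start, so accessibility there was not compared.

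**Figure D4:**
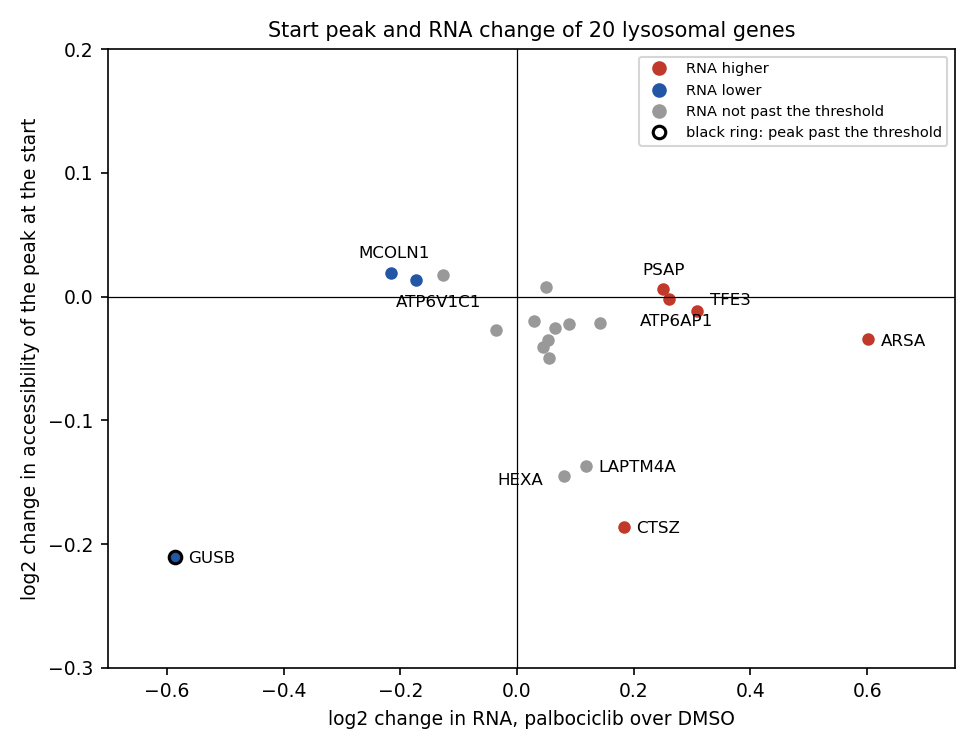
Log2 change in RNA (x axis) and in accessibility of the peak at the start (y axis) for 20 lysosomal genes with both values, coloured by the RNA call. GUSB, ringed, is low on both axes, while ARSA, TFE3, ATP6AP1 and PSAP lie to the right near 0 on the y axis.

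Splicing of these genes was read from the inclusion and skipping counts of 707 events in 41 of the 43 genes. Of these, 161 events in 33 genes reached 20 reads on average, with the rarer form making up 5% or more. The edgeR quasi-likelihood test, adjusted within event type, called 1 of the 161, against 0.35% of 37445 events, and 9 had an unadjusted p under 0.05. The authors' deposited table has an FDR under 0.05 for 9 of the 707 events, against 2.47% of all events with an FDR there. Besides LAMP2, these lay in HEXA, TPP1, GLA, CTSL, CTSZ and MITF. The widest difference among them was in a pair of mutually exclusive exons of CTSZ, whose inclusion level was 0.90, 0.83 and 0.86 in DMSO and 0.54, 0.47 and 0.68 with palbociclib. These levels rest on few reads. In DMSO there were 21, 23 and 29 inclusion reads, and 1, 2 and 2 reads of the other form. With palbociclib there were 19, 25 and 35 inclusion reads, and 7, 12 and 7 of the other form. The FDR of this event in the authors' deposited table was 0.02, and its edgeR adjusted p was 0.546.

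The event that edgeR called was a choice between 2 alternative 3′ exons of LAMP2 on chromosome X (minus strand). A near exon (chrX:120439076-120439293, 218 bases) and a far exon (chrX:120431248-120431462, 215 bases) follow the same exon (chrX:120441730-120441894). The event is filed as a skipped exon, but 0 to 4 junction reads per library joined the near exon to the far one, so the reads show the pair as alternatives. LAMP2 isoforms with different 3′ exons carry different membrane anchors and tails. Junction reads into the far exon were 469, 567 and 468 in DMSO and 785, 802 and 706 with palbociclib. Reads into the near exon were 378, 500 and 399 in DMSO and 381, 420 and 460 with palbociclib.

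The far exon took 55.4%, 53.1% and 54.0% of these junction reads in DMSO and 67.3%, 65.6% and 60.5% with palbociclib. No treated library reached down to the controls, and the means were 54.2% ± 1.13 and 64.5% ± 3.53 (SD, n = 3). The Wilson 95% interval of palbociclib replicate 3, 57.7% to 63.3%, overlapped that of DMSO replicate 1, 52.0% to 58.7%. These intervals cover counting error only. With exon reads included, the inclusion level of the near exon was 0.42, 0.44 and 0.42 in DMSO and 0.30, 0.31 and 0.37 with palbociclib (edgeR log2 odds ratio -0.62, adjusted p 0.0496). In the authors' deposited table its FDR was 0.000851.

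The LAMP2 call was just past the threshold. It was lost without DMSO replicate 1, 2 or 3 (edgeR adjusted p 0.103, 0.289 and 0.12) and without palbociclib replicate 1 or 2 (edgeR adjusted p 0.202 and 0.278). It was also lost with no filter on the minor form (edgeR adjusted p 0.763), and the log2 odds ratio stayed at -0.75 to -0.55 in these fits and without palbociclib replicate 3. Meanwhile the level of the whole gene was 68.1, 66.7 and 70.7 FPKM in DMSO and 72.0, 71.1 and 70.3 FPKM with palbociclib, with overlapping groups.

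**Figure D5:**
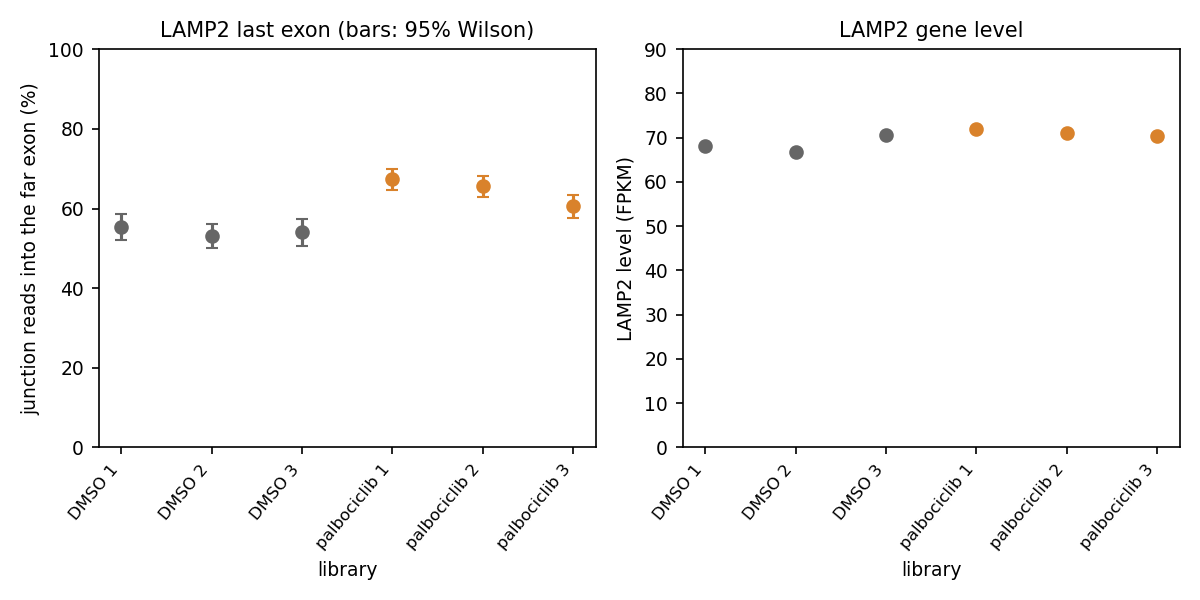
Left, percent of LAMP2 junction reads that lead into the far exon in each RNA library, with Wilson 95% intervals for counting error; right, the LAMP2 level in FPKM in the same libraries. The share is 53.1% to 55.4% in DMSO (grey) and 60.5% to 67.3% with palbociclib (orange), while the gene levels overlap.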

How the data were processed

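RNA was measured in 6 libraries and chromatin accessibility in 6, grouped by the labels. The RNA values were FPKM deposited by the authors, 1 column per library, and the submitters' processing notes name Salmon 1.10.2, STAR 2.7.10b, DESeq2 1.44.0 and the build GRCh38. The authors' deposited table holds a mean normalized count (a signal), log2 fold changes and p-values, per the file headers. The splicing tables, per the file headers in rMATS format, hold inclusion and skipping counts, inclusion levels as a fraction, a score for their difference and an FDR, as deposited. The ATAC table holds counts per peak that the authors made with featureCounts 2.0.6, per the file headers, from deduplicated alignments over 1 peak set, and the notes name MACS3. FPKM columns do not share a total, and how they were scaled is not given in the sources used here.

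RNA was tested with limma 3.58.1 under R 4.3.3. Values entered as log2(FPKM + 1), the prior followed the intensity, and genes whose mean was under 0.5 FPKM were left out. Peaks and splicing counts were tested with edgeR 4.0.16 (TMM for peaks; a term per library for splicing). DESeq2 1.42.0 was an alternative. RNA p-values were adjusted over all genes tested, those of peaks over all peaks tested, and those of splicing over the events tested within each type. Starts came from RefSeq, 32 from its promoters and the rest from gene ends with the strand of the splicing tables. Scripts were tested on simulated data. The genes, lists and tests were chosen with earlier results of these data known.

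Genes given per library were, in each role, the 4 with the smallest adjusted p among higher and among lower genes with groups that do not overlap, and all 3 MiT/TFE factors. From each further list at most 3 rises and 3 falls were named, apart from genes marked as outside the rule, and peaks and splicing events past 0.05. Alternatives covered the pseudocount, filters, scaling, trend, replicate block, window, other tools and each library left out.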

Additional observations from a re-analysis of the deposited data

How the results depend on the processing

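None of the 24 genes called by limma changed direction in any of the 13 alternatives, and 17 kept their call in all of them; those lost at least once were ATP6V0A1, ATP6V1A, CTSA, CTSH, LIPA, MCOLN1 and TFEB. Leaving out 1 library gave 15 to 19 genes higher and 5 to 6 lower, and quantile normalization gave 29 higher. The cause was not tested. With a common FPKM total, which put the median of all genes at -0.06, 10 uncalled genes turned: ATP6V0C to -0.029, ATP6V0D1 to -0.0315, ATP6V1B2 to -0.048, ATP6V1D to -0.018, ATP6V1E1 to -0.025, LAMP1 to -0.014, LAMP2 to -0.023, NPC1 to -0.0047, SCARB2 to -0.0405 and TPP1 to -0.033. Uncalled GLB1 and IDS turned to 0.052 and 0.049 under quantile normalization. With 1 library left out, GLB1 ran from -0.027 to 0.020 and TPP1 from -0.0054 to 0.080.

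The labels do not say whether replicate numbers pair the libraries. Same-numbered deviations correlated at 0.11, -0.0051 and 0.088 in RNA and at 0.0052, 0.039 and -0.025 in ATAC. Different-numbered ones correlated at -0.14 to 0.051 in RNA and at -0.066 to 0.057 in ATAC. With 3 libraries per group, these values cannot decide whether libraries are paired. With the replicate number as a block, limma gave 18 higher and 6 lower genes, and CTSH and TFEB lost their calls while 2 genes gained one; edgeR gave 0 peaks higher and 1 lower, and 1 splicing event with lower inclusion. Start peaks called lower were 0 with a loess offset, 0 with DESeq2 and 0 to 2 when 1 library was left out. Peaks anywhere inside the genes, added after seeing the data, gave 7 higher and 1 lower. Splicing events with lower inclusion were 0 without the filter on the minor form, 0 to 1 when 1 library was left out and 7 by the authors' deposited FDR, which also gave 2 with higher inclusion. The LAMP2 near exon share differed by -9.91 percentage points by inclusion level and by -10.3 from junction reads alone, an alternative added after seeing the data. ATAC counts per start peak limit small changes there, and FPKM give no depth.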

Other observations

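Peaks inside the gene bodies, away from the listed starts, were looked at after the start peaks had been seen. The 43 genes held 37 such peaks in 22 genes, and edgeR called 7 more open and 1 less open, against 5.41% and 6.46% of all peaks. Inside LIPA, acid lipase, a strong peak (chr10:89251358-89252181) held 136, 133 and 132 CPM (counts scaled to library size) in DMSO and 152, 149 and 148 with palbociclib (edgeR log2 0.16, adjusted p 0.0162). It lies 162910 bases after the start that RefSeq lists for LIPA, so it was not counted among the start peaks. Whether it marks another start, or the usual one, was not tested. Counted there, it would make 1 start peak more open in place of 0. A weak LIPA peak (chr10:89235024-89235477) went from 2.67, 3.73 and 3.38 to 4.60, 4.62 and 7.19 CPM (edgeR log2 0.72, adjusted p 0.00929).

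ATP6V0D1, the V0 subunit d, whose RNA did not pass the test, held a pair of peaks that were more open (chr16:67451756-67452384 and chr16:67461849-67462283), with log2 changes of 0.41 and 0.44 (edgeR adjusted p 0.00268 and 0.0018). HEXA, ATP6V0A1 and NPC1 each held 1 peak that was more open, with log2 changes of 0.33, 0.46 and 0.66 (edgeR adjusted p 0.0142, 0.0375 and 0.0139). The peak that was less open lay inside CTSD (chr11:1755704-1756571), the gene whose RNA rose from 953 ± 10.9 to 1362 ± 39.9 FPKM (SD, n = 3). It held 68.4, 74.3 and 71.6 CPM in DMSO and 60.9, 63.0 and 64.7 with palbociclib (edgeR log2 -0.19, adjusted p 0.0272).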
